A study of Homo sapiens with 24 samples.

Results

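HCT116 cells treated for 72 h with 120 nM decitabine (DAC) or 150 nM of the prodrug G668684 were set against HCT116 cells given the solvent dimethyl sulfoxide (DMSO) alone. HCT116 is an established human colorectal cancer cell line, and Affymetrix HG-U133 Plus 2.0 arrays measured its RNA. The arrays were chosen by their titles: 2 of DAC at 120 nM and 2 of G668684 at 150 nM, pooled as 1 low-dose side of 4 arrays, and 4 of DMSO, so 8 of the 24 arrays of the series. The titles of the G668684 arrays carry the word ester, and its structure is not described here. The higher doses of the same compounds, 5 µM DAC and 7 µM G668684 with 2 arrays each, were used for 1 comparison of doses. The labels do not say that arrays of a group came from separate cultures, so p-values reflect a spread between arrays that may be technical. That spread was estimated over all 24 arrays of the series, which include groups titled Aza, Aza_G669043 and phos_G669071. With the 8 arrays alone, 3367 genes were called in 2 groups and 3004 in 3 groups, in place of 4991. Precision is limited by how few arrays there are, with 95% intervals of differences that reached a median of 0.169 log2 to each side. All levels are log2 RMA intensities of a gene's probe set with the highest mean, and all differences are low dose minus DMSO on the log2 scale unless another is named.

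Decitabine is a deoxycytidine analogue that is phosphorylated in the cell and built into DNA during replication. DNA methyltransferases bind to it there and are trapped and degraded, so that CpG methylation is lost as cells divide. Many genes of the germ line are kept silent in somatic cells by methylation of CpG-rich promoters, and cancer-testis antigen genes are the best known of those that such drugs switch on. Trapped enzyme also damages DNA, and p53, which is wild type in HCT116, is one of the factors that respond to damage.

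The low-dose and DMSO arrays lay apart on the first principal component of the 8 arrays, which held 60.8% of the variance. The second held 23.8% and parted each group: the first replicates of DAC and G668684 and DMSO replicates 1 and 2 had values of 8.55 to 18.3, and the second replicates of DAC and G668684 and DMSO replicates 3 and 4 had values of -19 to -9.28. No label names these array sets, and each holds 2 low-dose and 2 DMSO arrays. The difference between 3 prime and 5 prime probe sets of beta-actin, 1 measure of RNA quality, moved with them. It was -0.06 with DAC, -0.07 with G668684, -0.03 and 0 in DMSO in the first array set, and 0.09 with DAC, 0.02 with G668684, 0.24 and 0.15 in DMSO in the second. The same difference for GAPDH hardly moved. It was -0.15 with DAC, -0.17 with G668684, -0.14 and -0.16 in DMSO in the first array set. In the second it was -0.17 with DAC, -0.19 with G668684, -0.15 and -0.17 in DMSO. With the beta-actin difference as a covariate, 5400 genes were called in place of the 4991 given below, with 238 at least 2-fold higher in place of 221 and 20 at least 2-fold lower in place of 30. Differences within each array set are given beside the leading results. Mean levels of 18 colorectal epithelial line markers ran from 7.00 to 14.14 at the low dose and from 6.78 to 13.69 in DMSO. The simple epithelial keratins KRT8 and KRT18 averaged 12.53 and 14.14 at the low dose, against 12.07 and 13.69 in DMSO. Of the 18 markers 5 rose and 2, CLDN4 and CLDN7, fell. These levels do not by themselves establish the labelled cell type.

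**Figure D1:**
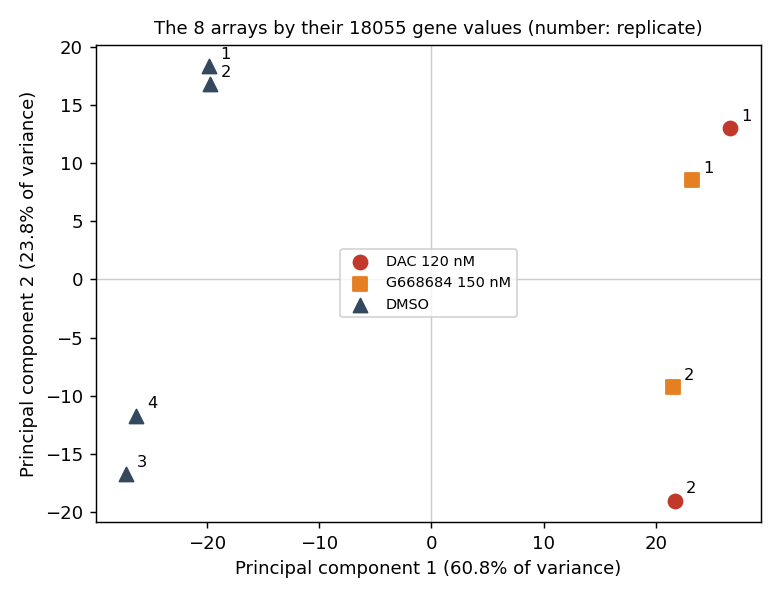
The 8 arrays by the first principal component (horizontal, 60.8% of variance) and the second (vertical, 23.8%) of their log2 gene values, with replicate numbers beside the points. Low-dose arrays lie right of 20 and DMSO arrays left of -19, and both groups split on the vertical axis.

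At the low dose 2590 genes rose and 2401 fell, which is 14.3% and 13.3% of the 18055 genes tested and 27.6% together (limma, Benjamini-Hochberg adjusted p under 0.05). The changes were unequal in size. Among the called genes 221 rose at least 2-fold, 1.22% of the genes tested, and 30 fell at least 2-fold, 0.166%. The rises reached 7.66 log2 and 78 genes rose by at least 2 log2, while 1 gene fell by as much. The median rise of the called genes was 0.36 and the median fall -0.34. All 4 low-dose arrays lay above all 4 DMSO arrays for 2170 genes (12%) and below them for 1830 (10.1%). Of the 221 genes, 44 (19.9%) had a DMSO mean under 5, the filter value, and of all genes tested 2.19% had. A gene was tested only if it reached 5 on at least 2 arrays of the series, treated arrays included. The filter thus removed genes that were low with and without treatment, so no conclusion is drawn from the gap between these shares. Whether DMSO levels under 5 lie above background is unknown, and the size of a fold against them is not settled. Within the array sets, 182 of the 221 differed by at least 1 log2 in both. The count of at least 2-fold lower genes depended on single arrays: it was 71 without the second DAC array, 49 without the second G668684 array, and 50 without the first or without the second DMSO array.

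**Figure D2:**
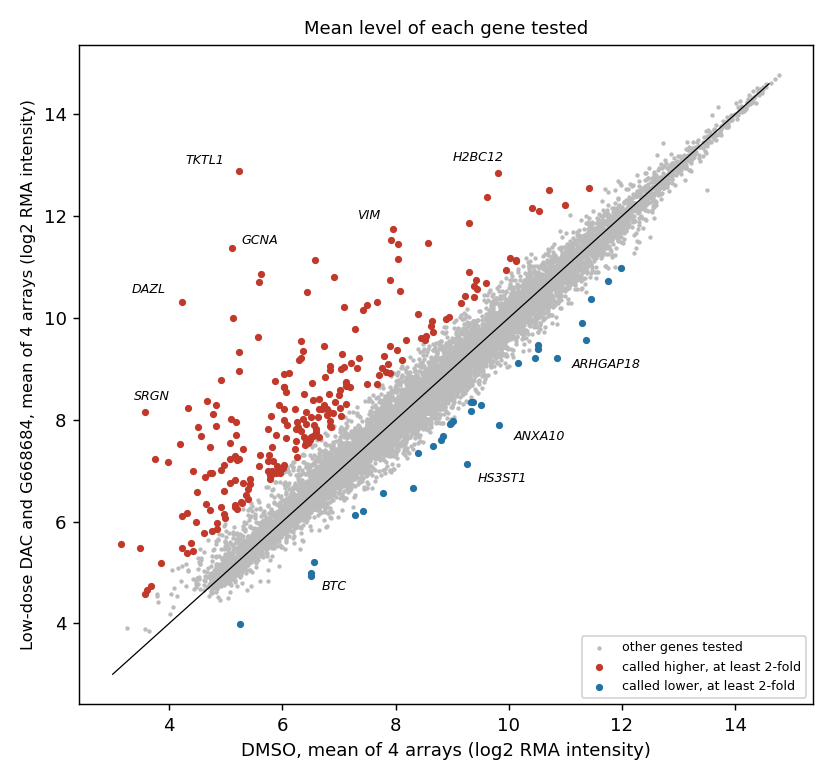
Mean level of each of the 18055 genes in low-dose cells (vertical) against DMSO (horizontal), both in log2 RMA intensity over 4 arrays, with the line of equal levels. The 221 genes called at least 2-fold higher (red) spread far above the line, many from DMSO levels of 4 to 7, while the 30 called at least 2-fold lower (blue) lie closer to it.

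The largest rise was that of TKTL1, a transketolase-like gene. Its level was 12.93 and 12.95 with DAC and 12.81 and 12.88 with G668684, against 5.33, 4.70, 5.54 and 5.38 in DMSO, a difference of 7.66 ± 0.13 (SE, adjusted p = 2.9e-19, limma) and of 7.86 and 7.46 within the array sets. All 4 low-dose values were above all DMSO values, which lay near the filter value. GCNA, a germ cell protein known for its role in the repair of DNA-protein crosslinks, had levels of 11.32 and 11.59 with DAC and 11.29 and 11.33 with G668684, against 4.89, 5.47, 5.20 and 4.89 in DMSO. The germ cell RNA-binding protein DAZL had levels of 10.02 and 10.93 with DAC and 10.03 and 10.32 with G668684, against 3.99, 4.51, 4.19 and 4.23 in DMSO, with every DMSO value under 5. For neither gene did the groups overlap, and the differences were 6.27 ± 0.12 for GCNA and 6.10 ± 0.15 for DAZL. The cancer-testis antigen MAGEA4 was at 10.50 and 11.27 with DAC and 10.50 and 11.18 with G668684, against 5.69, 5.60, 5.72 and 5.47 in DMSO. MAEL, which acts in transposon silencing in the germ line, was at 10.58 and 10.91 with DAC and 10.65 and 10.66 with G668684, against 5.71, 5.63, 5.51 and 5.47 in DMSO. Both were more than 4 log2 above DMSO in each array set, with differences of 4.85 and 5.63 for MAGEA4 and 4.94 and 5.30 for MAEL.

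The promoters of these genes, and of the genes that fell most, are shown because promoter CpG sites are where the methylation that DAC removes would lie; methylation itself was not measured. Each window holds 300 bases, most of them before the start of the gene and the last ones after it, 5′ to 3′ on the gene's strand, from RefSeq on GRCh38.p14, with every CpG in capitals. The windows of the raised genes are chrX:154295545-154295844 (+ strand, 18 CpG) for TKTL1, chrX:71578187-71578486 (+ strand, 21 CpG) for GCNA, chr3:16605374-16605673 (- strand, 33 CpG) for DAZL, chrX:151912224-151912523 (+ strand, 10 CpG) for MAGEA4 and chr1:166975332-166975631 (+ strand, 60 CpG) for MAEL. Those of the lowered genes are chr4:11428845-11429144 (- strand, 30 CpG) for HS3ST1 and chr4:168092287-168092586 (+ strand, 0 CpG) for ANXA10.
TKTL1: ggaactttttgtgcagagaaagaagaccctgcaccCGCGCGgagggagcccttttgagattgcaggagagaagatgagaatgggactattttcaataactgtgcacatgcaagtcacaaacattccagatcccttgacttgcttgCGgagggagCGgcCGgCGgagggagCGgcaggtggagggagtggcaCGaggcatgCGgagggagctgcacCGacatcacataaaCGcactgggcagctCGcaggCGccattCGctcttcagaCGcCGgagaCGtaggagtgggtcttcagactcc
GCNA: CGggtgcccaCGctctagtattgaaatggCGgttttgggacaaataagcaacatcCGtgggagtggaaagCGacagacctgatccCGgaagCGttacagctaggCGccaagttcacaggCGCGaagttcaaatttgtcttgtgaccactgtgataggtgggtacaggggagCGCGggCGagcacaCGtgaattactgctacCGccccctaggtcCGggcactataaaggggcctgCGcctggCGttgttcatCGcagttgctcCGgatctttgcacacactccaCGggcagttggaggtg
DAZL: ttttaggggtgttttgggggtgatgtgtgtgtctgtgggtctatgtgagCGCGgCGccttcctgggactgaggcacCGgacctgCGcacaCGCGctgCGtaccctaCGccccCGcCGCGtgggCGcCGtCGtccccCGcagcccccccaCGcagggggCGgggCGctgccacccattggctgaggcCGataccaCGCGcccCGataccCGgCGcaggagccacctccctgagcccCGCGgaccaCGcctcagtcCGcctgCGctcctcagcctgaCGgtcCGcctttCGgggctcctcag
MAGEA4: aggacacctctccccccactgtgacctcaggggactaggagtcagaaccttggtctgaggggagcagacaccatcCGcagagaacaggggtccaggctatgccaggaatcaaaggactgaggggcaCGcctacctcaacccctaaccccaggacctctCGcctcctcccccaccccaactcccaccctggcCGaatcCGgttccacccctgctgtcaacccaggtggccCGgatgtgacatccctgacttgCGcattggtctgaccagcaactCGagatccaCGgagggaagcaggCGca
MAEL: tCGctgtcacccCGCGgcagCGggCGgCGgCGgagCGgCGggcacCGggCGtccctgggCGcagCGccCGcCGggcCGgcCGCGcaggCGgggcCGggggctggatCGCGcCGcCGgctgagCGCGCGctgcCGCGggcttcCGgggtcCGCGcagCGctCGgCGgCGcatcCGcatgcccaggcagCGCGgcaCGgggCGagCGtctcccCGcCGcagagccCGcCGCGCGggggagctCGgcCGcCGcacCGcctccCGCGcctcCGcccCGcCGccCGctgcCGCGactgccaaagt
HS3ST1: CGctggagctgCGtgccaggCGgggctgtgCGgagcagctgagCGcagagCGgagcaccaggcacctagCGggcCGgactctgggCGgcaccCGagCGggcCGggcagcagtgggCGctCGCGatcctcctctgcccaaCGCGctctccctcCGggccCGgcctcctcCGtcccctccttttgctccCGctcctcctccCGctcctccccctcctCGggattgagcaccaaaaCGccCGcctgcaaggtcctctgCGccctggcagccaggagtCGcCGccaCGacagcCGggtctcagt
ANXA10: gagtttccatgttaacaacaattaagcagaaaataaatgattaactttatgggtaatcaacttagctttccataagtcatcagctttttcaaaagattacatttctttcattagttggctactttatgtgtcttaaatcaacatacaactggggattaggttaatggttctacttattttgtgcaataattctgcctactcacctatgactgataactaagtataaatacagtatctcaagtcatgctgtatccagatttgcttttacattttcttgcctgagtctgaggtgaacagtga

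The raised genes shown differ in CpG content, with 10 sites in MAGEA4 and 60 in MAEL, and the lowered ones do too, with 30 in HS3ST1 and 0 in ANXA10. A RefSeq window was found for 171 of the 221 genes at least 2-fold higher, 29 of the 30 lower and 14134 of all genes tested. The median ratio of observed to expected CpG was 0.70 in the higher genes, 0.77 in the lower genes and 0.78 in all genes tested. It was at least 0.6 in 62.6% of the higher, 75.9% of the lower and 69.2% of all. Of 8 motifs searched on both strands, CACGTG was found in 14% of the higher, 6.9% of the lower and 9.25% of all windows, and TATAAA in 15.2%, 3.45% and 8.07% in the same order. CCAAT was found in 43.9%, 37.9% and 35.9%, GGGCGG in 60.2%, 65.5% and 61.2%, GGCGGGAA in 4.09%, 0% and 4.41%, GCATGCGC in 1.17%, 0% and 4.34%, TGACGTCA in 2.34%, 0% and 2.76%, and TTTGGCGC in 0%, 3.45% and 0.856%. These shares describe letters in a window and are no evidence of binding.

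**Figure D3:**
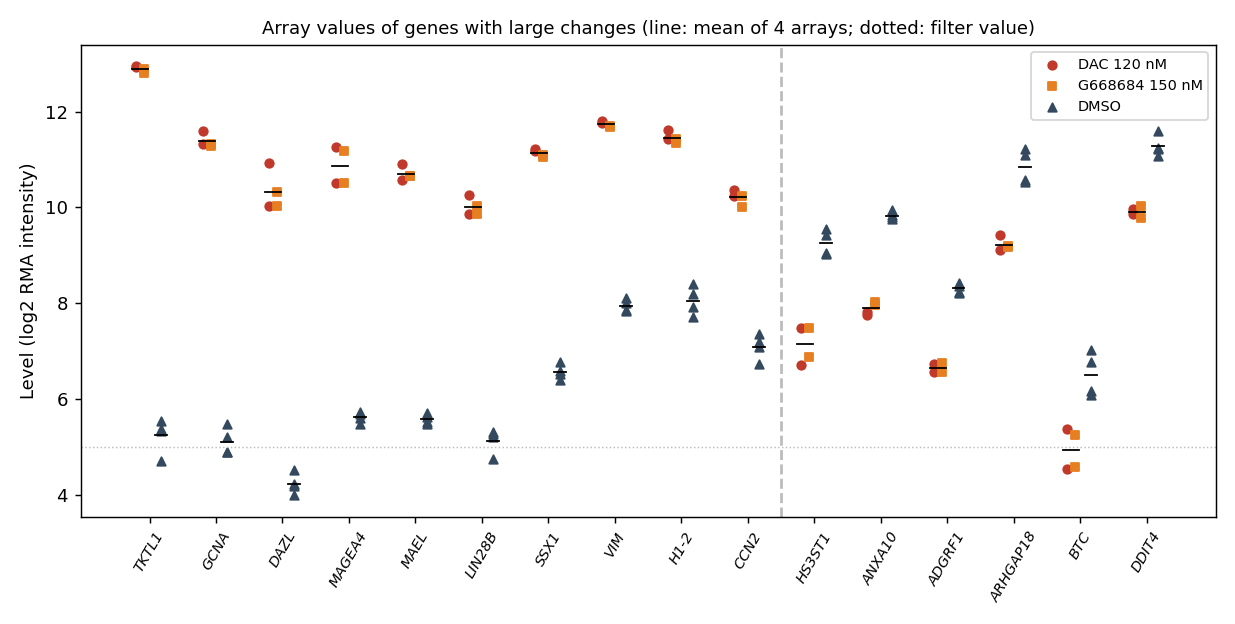
Level of 16 genes on each array (log2 RMA intensity), with DAC and G668684 at the left and DMSO at the right of each gene, and lines at the means of 4 arrays. Low-dose arrays lie above all DMSO arrays for the 10 genes left of the dashed line and below them for the 6 right of it.

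Groups of germ line genes rose as well. Of the cancer-testis antigen genes, 29 of 37 tested members rose and 1 fell, with a median difference of 0.92, against a median of 0.00 over all genes tested. The share that rose was 78.4%, against 14.3% of all genes. Next to MAGEA4, the largest rises in the list were those of SSX1, at 4.56 ± 0.10, MAGEA1, at 4.08 ± 0.12, and MAGEA8, at 3.72 ± 0.15. SPA17, a sperm surface protein, fell, at -0.43 ± 0.11 (adjusted p = 0.0041, limma), a call that was lost with DMSO replicates 1 and 2 alone. MAGEA and SSX genes are families of near-identical copies, so their probe sets may share signal. FMR1NB, a cancer-testis antigen gene outside the list, rose by 4.58 ± 0.14 from DMSO values all under 5. Of the germ cell RNA, piRNA and meiosis genes, 26 of 55 tested members (47.3%) rose and 2 (3.64%) fell, with a median of 0.21. MEIOC, needed in mice for germ cells to go through meiosis, rose by 3.71 ± 0.16 from a DMSO mean under 5, while DMC1, the meiotic recombinase, fell, at -0.26 ± 0.08, a call lost without DMSO replicate 4, the second DAC array or the second G668684 array. The list holds GCNA, DAZL and MAEL as well. Of the testis or sperm forms of metabolic enzymes, 2 of 17 tested members rose and 0 fell, so that the share that rose, 11.8%, was below the 14.3% of all genes and the median was -0.01. The risen members were TKTL1 and TKTL2, the second by 0.50 ± 0.11. Without the second G668684 array 2 members of the list fell. COX8C, a testis form of a respiratory chain subunit, rose by 3.87 ± 0.14 from a DMSO mean under 5.

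Of the pluripotency and early embryo genes, 16 of 25 tested members (64%) rose, against 14.3% of all genes, and 0 fell. The median was 0.38. LIN28B, which blocks the maturation of let-7 microRNAs, had levels of 9.86 and 10.26 with DAC and 9.86 and 10.02 with G668684, against 5.26, 5.20, 4.75 and 5.30 in DMSO. ZFP42, known as the stem cell factor REX1, rose by 4.10 ± 0.19, and L1TD1, an RNA-binding protein of stem cells, by 2.11 ± 0.16. Within the array sets the differences of ZFP42 were 3.51 and 4.69. OOEP, an oocyte protein, rose by 2.75 ± 0.12. Of the 221 genes at least 2-fold higher, 25 (11.3%) had such a gene as the next tested gene on the chromosome in RefSeq order, against 430 (2.39%) of the 18009 genes that could be placed. They formed 11 runs, the longest of which held the 4 genes DPPA5, KHDC3L, OOEP and DDX43. Another held KRT12, KRT20 and KRT23, and the other runs of 2 were DPPA2 with DPPA4, FBXL13 with NFE4, H2BC5 with H2BC6, MAGEA11 with MAGEA8, MAGEA4 with MAGEA10, SSX1 with SSX3, SUN3 with UPP1, TFPI2 with GNG11, and VIM with ST8SIA6-AS1. Neighbours of 1 family, such as MAGEA and SSX genes, may share probe signal.

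Among genes already well measured in DMSO, with both means at 7 or above, the largest rises included matrix, cytoskeleton and histone genes. The intermediate filament gene VIM, marker of mesenchymal cells, was at 11.77 and 11.81 with DAC and 11.67 and 11.70 with G668684, against 8.01, 8.10, 7.86 and 7.83 in DMSO. The groups lay far apart, and the difference was 3.79 ± 0.06 (adjusted p = 1.5e-19, limma). The linker histone H1-2 was at 11.61 and 11.43 with DAC and 11.42 and 11.34 with G668684, against 7.71, 8.40, 8.20 and 7.91 in DMSO. CCN2, a matrix protein also known as a YAP target, was at 10.23 and 10.37 with DAC and 10.01 and 10.23 with G668684, against 6.73, 7.09, 7.35 and 7.19 in DMSO. PRF1, the pore-forming protein of cytotoxic lymphocytes, rose by 3.10 ± 0.06 to a level of 11.15. The short-chain dehydrogenase genes DHRSX and DHRS2 rose by 2.90 ± 0.07 and 2.75 ± 0.08. Of the histone genes, 18 of 44 tested members (40.9%) rose and 4 (9.09%) fell, against 14.3% and 13.3% of all genes. The median was 0.17. Besides H1-2 the largest rises were in the H2B genes H2BC12, at 3.03 ± 0.11, H2BC9, at 2.89 ± 0.10, and H2BC5, at 2.84 ± 0.07. H2BC12L, an H2B-like gene outside the list, rose by 3.62 ± 0.07. Histone genes are near-identical copies too, and with only the probe sets not marked as matching several transcripts, which leaves fewer genes to test, 11 of the list rose. The variant histone MACROH2A2 fell, at -0.31 ± 0.06. Of the histone genes 1 fell without the first G668684 array and 2 without DMSO replicate 2 or the second DAC array.

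Of the mesenchymal and extracellular matrix genes, 19 of 52 tested members (36.5%) rose and 4 (7.69%) fell, against 14.3% and 13.3% of all genes. The median was 0.15. SPARC, a matrix glycoprotein, rose by 4.05 ± 0.17, and COL6A3, a collagen VI chain, by 2.35 ± 0.18. CALD1, caldesmon, and S100A4, a calcium-binding protein of motile cells, fell, at -0.62 ± 0.14 and -0.44 ± 0.06, the call of CALD1 being lost with DMSO replicates 1 and 2 alone. Of the genes known to be hypermethylated in colorectal cancer, 23 of 65 tested members (35.4%) rose and 3 (4.62%) fell. The median was 0.08, and 15 rose with only the unmarked probe sets. They include VIM and SPARC, the deubiquitinase UCHL1, at 3.89 ± 0.12, and the cysteine dioxygenase CDO1, at 2.61 ± 0.12. For UCHL1 and CDO1 only 1 of 2 probe sets went that way, and the unmarked probe set of UCHL1 gave -0.07. MGMT, which removes alkyl groups from guanine, fell, at -0.63 ± 0.08 (adjusted p = 7.7e-06, limma).

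More keratin genes rose than fell, and junction genes were divided. Of the keratin genes, 13 of 30 tested members (43.3%) rose and 0 fell, with a median of 0.16, and 8 rose with only the unmarked probe sets. KRT222, a keratin-named gene outside the list, fell, at -1.34 ± 0.14. KRT20, a keratin of intestinal epithelium, was at 8.71 and 9.04 with DAC and 8.63 and 8.65 with G668684, against 5.97, 5.75, 5.85 and 5.91 in DMSO. KRT12 rose by 3.05 ± 0.14 from a DMSO mean under 5, and KRT23 by 1.45 ± 0.09. Of the epithelial adhesion and junction genes, 6 of 50 tested members (12%) rose and 13 (26%) fell, against 14.3% and 13.3% of all genes, with a median of -0.05. GRHL2, a transcription factor of epithelial identity, fell, at -0.97 ± 0.11, as did the epithelial splicing regulator ESRP1, at -0.90 ± 0.08, the small GTPase RAB25, at -0.84 ± 0.05, and the claudin CLDN4, at -0.64 ± 0.07. The gap junction gene GJA1 rose by 3.48 ± 0.12, from DMSO values all under 5, and the desmosome gene DSP by 0.48 ± 0.09. Of the intestinal differentiation genes, 6 of 42 tested members rose and 3 fell, so that 14.3% rose, as among all genes; 3 rose without the first DMSO or the first DAC array.

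The genes that fell most were HS3ST1, a heparan sulfate sulfotransferase, and ANXA10, an annexin of gastric and intestinal epithelium. HS3ST1 was at 6.71 and 7.48 with DAC and 6.88 and 7.49 with G668684, against 9.02, 9.04, 9.54 and 9.43 in DMSO, a difference of -2.12 ± 0.15 (adjusted p = 1.4e-09, limma), and 2 of its 3 probe sets went that way. ANXA10 was at 7.81 and 7.76 with DAC and 7.97 and 8.03 with G668684, against 9.75, 9.79, 9.95 and 9.84 in DMSO, with a smaller error, at -1.94 ± 0.05. The protocadherin PCDH7 had a difference of -1.80 ± 0.10, but 2 of its 5 probe sets went that way and the mean over all of them gave 0.26. The adhesion receptor ADGRF1 was at 6.56 and 6.74 with DAC and 6.56 and 6.75 with G668684, against 8.22, 8.24, 8.36 and 8.42 in DMSO. ARHGAP18 was at 9.10 and 9.43 with DAC and 9.19 and 9.17 with G668684, against 10.54, 10.58, 11.09 and 11.21 in DMSO. In neither did the groups overlap, and the differences were -1.66 ± 0.08 and -1.63 ± 0.12. For ADGRF1 3 of 4 probe sets went that way. DDIT4, an inhibitor of mTORC1 signalling, fell, at -1.38 ± 0.09. RPGRIP1L, a protein of the base of the cilium, fell, at -1.52 ± 0.17, as did MPP7, a polarity scaffold, at -1.25 ± 0.19, the nuclear receptor NR2F1, at -1.23 ± 0.16, TFPI, the inhibitor of tissue factor, at -1.21 ± 0.14, the epithelial ETS factor EHF, at -1.18 ± 0.10, and TMEM200A, at -1.16 ± 0.10.

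Genes of DNA replication, repair and mitosis fell by small amounts in large numbers. Of the S phase and DNA replication genes, 0 of 66 tested members rose and 45 fell, which is 68.2% against the 13.3% of all genes, with a median of -0.32 and medians of -0.30 and -0.33 within the array sets. With only the unmarked probe sets 29 fell. POLA1, the catalytic subunit of DNA polymerase alpha, was at 8.89 and 8.80 with DAC and 8.74 and 8.82 with G668684, against 9.45, 9.46, 9.70 and 9.70 in DMSO. CDT1, which loads the replicative helicase, fell, at -0.74 ± 0.08, and DTL, part of the ligase that degrades CDT1, at -0.71 ± 0.12. Of the G2/M and mitosis genes, 3 of 78 tested members (3.85%) rose and 33 (42.3%) fell, with a median of -0.21. The mitotic kinesins KIF15 and KIF11 fell, at -0.91 ± 0.13 and -0.87 ± 0.16. In this list 19 fell with the 8 arrays alone in 2 groups and 20 with these in 3 groups or with DMSO replicates 1 and 2 only. The replicate block, in which differences from DMSO rest on the same 2 DMSO arrays, gave 21. In the list 1 rose without DMSO replicate 3, the first DAC array or the second G668684 array. Of the Fanconi, recombination, mismatch and excision repair genes, 7 of 72 tested members (9.72%) rose and 31 (43.1%) fell. Among all genes 14.3% rose and 13.3% fell. The median of the list was -0.20. BRIP1, a helicase that binds BRCA1, fell, at -0.98 ± 0.11, as did BRCA1 itself, at -0.66 ± 0.12, and PMS1, a mismatch repair gene, at -0.79 ± 0.08. The nucleotide excision repair genes ERCC1 and XPC rose, by 0.81 ± 0.06 and 0.47 ± 0.06. For ERCC1 2 of 3 probe sets and for PMS1 3 of 4 went the way given.

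Of the p53 target genes, 25 of 60 tested members (41.7%) rose and 4 (6.67%) fell, against 14.3% and 13.3% of all genes. The median was 0.13. The stress cytokine GDF15 was at 11.29 and 11.20 with DAC and 11.13 and 11.10 with G668684, against 9.78, 9.97, 10.30 and 10.03 in DMSO, but its unmarked probe set gave 0.18 and was not called. TIGAR, a regulator of glycolysis, rose by 1.14 ± 0.11, and TP53I3, an oxidoreductase, by 1.1 ± 0.07. All 3 had a smaller difference in the second array set, at 1.33 and 0.98 for GDF15, 1.34 and 0.93 for TIGAR and 1.22 and 0.99 for TP53I3. KITLG, the ligand of the receptor KIT, fell, at -0.99 ± 0.06. Of the BCL2 family and death receptor genes, 7 of 43 tested members rose and 6 fell. These shares of 16.3% and 14% were near the 14.3% and 13.3% of all genes. BAK1 and MCL1, which promote and oppose apoptosis, rose by 0.54 ± 0.07 and 0.54 ± 0.07. For MCL1 5 of 6 probe sets went that way.

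The methyltransferase transcripts themselves were not called as measured by their brightest probe sets. DNMT1, the maintenance enzyme, was at 10.62 and 10.36 with DAC and 10.33 and 10.39 with G668684, against 10.55, 10.52, 10.56 and 10.50 in DMSO, a difference of -0.11 ± 0.08 (adjusted p = 0.35, limma). The differences were 0.11 ± 0.07 for DNMT3A, 0.21 ± 0.12 for DNMT3B and 0.06 ± 0.08 for DNMT3L, with adjusted p-values of 0.25, 0.23 and 0.63 (limma). UHRF1, which brings DNMT1 to DNA, had -0.24 ± 0.10 (adjusted p = 0.072, limma), and TET1, TET2 and TET3, which oxidize methylcytosine, had -0.10, 0.12 and 0.02, none of them called. UHRF1 was called, at -0.32 to -0.28, when the first or second DMSO array or the second array of either compound was left out. It was also called with the array sets as a block, at -0.24, and in the second array set alone, at -0.27. Calls came as well with DMSO replicates 3 and 4 only, at -0.40, and with arrays quantile normalized again, at -0.23. DNMT3B was called, at 0.39, with DMSO replicates 1 and 2 alone and with the replicate number as a block, and at 0.33 with the beta-actin covariate. DNMT3A was called, at 0.18, with the mean of its probe sets. Of the DNA methylation and demethylation genes, 2 of 22 tested members (9.09%) rose and 4 (18.2%) fell, against 14.3% and 13.3% of all genes. HELLS, a remodeller needed for DNA methylation, fell, at -1.05 ± 0.18. Its partner CDCA7 had -0.75 ± 0.06, but -0.11 and no call on its unmarked probe set. The related CDCA7L fell, at -0.66 ± 0.06, as did MAT2A, which makes the methyl donor, at -0.50 ± 0.06. Without DMSO replicate 1, DMSO replicate 2 or the second array of either compound 1 of this list rose. Of the nucleoside genes, 2 of 32 tested members (6.25%) rose and 11 (34.4%) fell, and 5 fell with only the unmarked probe sets. In this list 1 rose without DMSO replicate 1 or the second array of either compound. CDA, the deaminase that inactivates DAC, rose by 0.46 ± 0.06, and the ribonucleotide reductase subunit RRM1 and the dUTPase DUT fell, at -0.50 ± 0.05 and -0.42 ± 0.08. DCK, the kinase that activates DAC, had -0.37 ± 0.18 (adjusted p = 0.15, limma), and was called without DMSO replicate 1, at -0.52, and without the second DAC array, at -0.56. It was also called in the first array set alone, at -0.27, and in the second alone, at -0.46. With DMSO replicates 3 and 4 only DCK was called at -0.78.

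Of the interferon-stimulated and RNA-sensing genes, 16 of 67 tested members (23.9%) rose and 13 (19.4%) fell, against 14.3% and 13.3% of all genes. The median was -0.02, and 7 rose with only the unmarked probe sets. IRF7, a transcription factor of the interferon response, was at 9.71 and 9.62 with DAC and 9.56 and 9.39 with G668684, against 8.43, 7.96, 8.37 and 7.95 in DMSO. IFI27 rose by 1.5 ± 0.13 and the DNA-editing enzyme APOBEC3B by 1.07 ± 0.11, while the RNA sensor IFIH1, at -0.65 ± 0.14, DDX60, at -0.76 ± 0.12, and CMPK2, at -0.67 ± 0.10, fell. The fall of IFIH1 was -0.36 and -0.94 within the array sets. Of the MHC and antigen presentation genes, 13 of 36 tested members (36.1%) rose and 4 (11.1%) fell, and 4 rose with only the unmarked probe sets. The NKG2D ligands ULBP2 and MICA rose by 1.07 ± 0.07 and 0.57 ± 0.06, and the immunoproteasome subunit PSMB9 fell, at -0.35 ± 0.06. Of the chemokine, cytokine and NF-kB target genes, 11 of 48 tested members (22.9%) rose and 4 (8.33%) fell. CXCL8, a neutrophil chemokine, rose by 1.24 ± 0.26, and PLAU, urokinase, fell, at -0.89 ± 0.07. In this list 7 rose without the first DAC array or either G668684 array, and 2 fell without the second G668684 array.

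**Figure D4:**
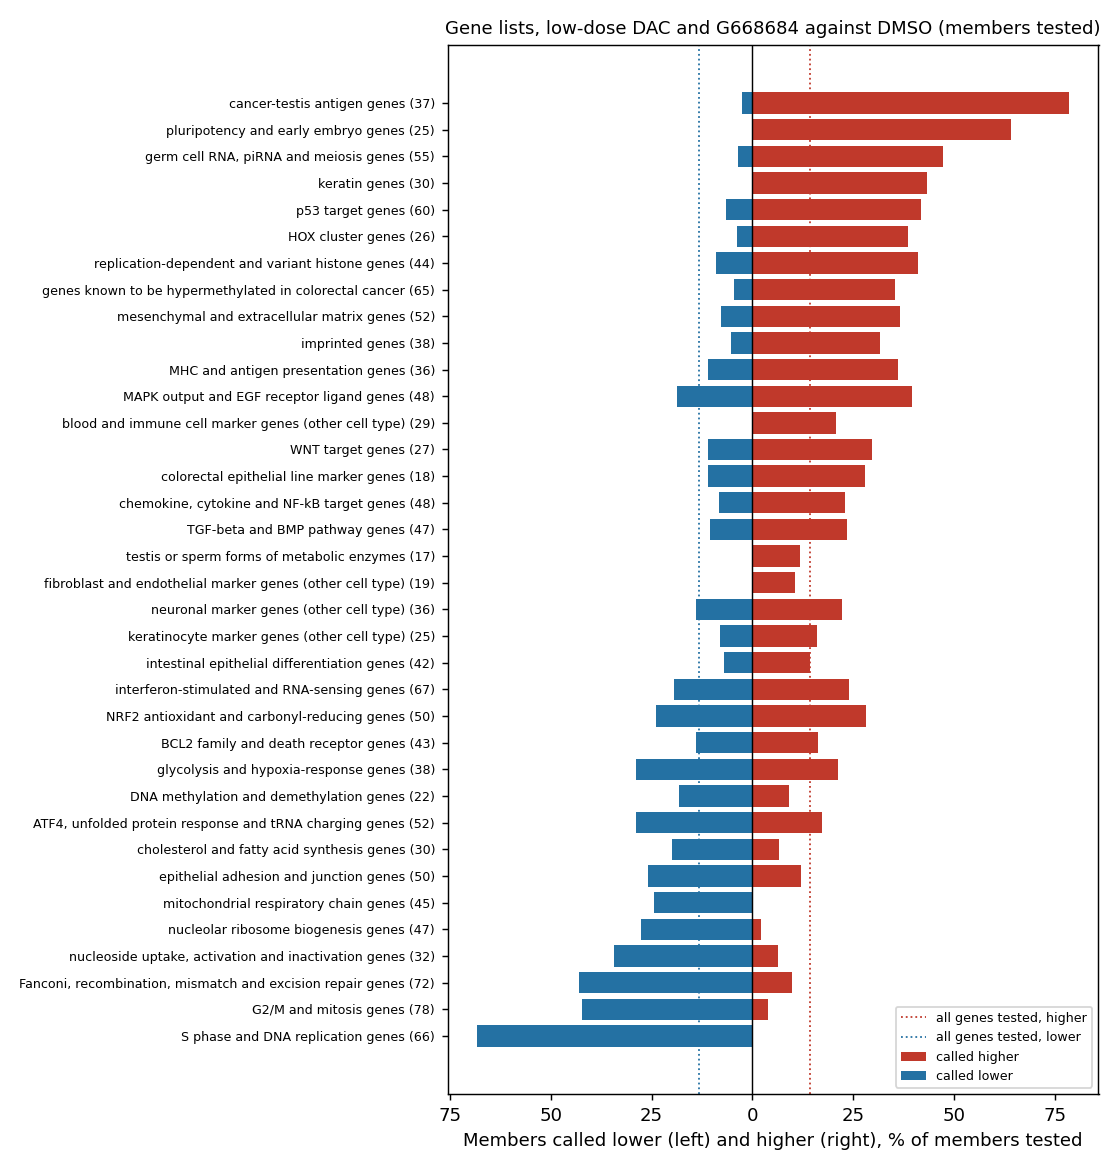
Share of the tested members of each of 36 gene lists called lower (left, blue) and higher (right, red) at the low dose against DMSO, in %, with the number tested in brackets. Dotted lines mark 14.3% higher and 13.3% lower over all genes tested; cancer-testis genes stand at one end and S phase genes at the other.

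Of all genes tested 14.3% rose and 13.3% fell. The shares were 39.6% and 18.8% for MAPK output and EGF receptor ligand genes and 23.4% and 10.6% for TGF-beta and BMP pathway genes. They were 29.6% and 11.1% for WNT target genes, 31.6% and 5.26% for imprinted genes, and 38.5% and 3.85% for HOX cluster genes. Of the MAPK output and EGF receptor ligand genes, 19 of 48 tested members rose and 9 fell, with a median of 0.12: the AP-1 and related factors JUN and MAFF rose by 1.24 ± 0.09 and 1.31 ± 0.09, and the EGF receptor ligands BTC and EREG fell, at -1.58 ± 0.20 and -0.95 ± 0.18. BTC was at 4.53 and 5.37 with DAC and 4.57 and 5.25 with G668684, against 6.08, 6.17, 7.02 and 6.77 in DMSO. Of the TGF-beta and BMP pathway genes, 11 of 47 tested members rose and 5 fell, with rises in the inhibitor SMAD7, of 1.35 ± 0.10, and the pseudoreceptor BAMBI, of 1.26 ± 0.08, and a fall in the BMP target ID1, at -0.39 ± 0.05; 3 fell without the second G668684 array. Of the WNT target genes, 8 of 27 tested members rose and 3 fell; SOX9, a factor of intestinal crypts, and the WNT inhibitor DKK1 rose, by 0.69 ± 0.06 and 0.77 ± 0.09, and MYC fell, at -0.37 ± 0.06. Of the imprinted genes, 12 of 38 tested members rose and 2 fell, including CDKN1C, a cyclin-dependent kinase inhibitor, which was at 9.53 and 9.52 with DAC and 9.53 and 9.66 with G668684, against 8.53, 8.43, 8.63 and 8.48 in DMSO; 4 fell without DMSO replicate 1 or the first G668684 array. Of the HOX cluster genes, 10 of 26 tested members rose and 1 fell, and 6 rose with only the unmarked probe sets; HOXB2 rose by 1.06 ± 0.09, and 0 fell without DMSO replicate 3 or the first array of either compound.

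Among all genes tested 14.3% rose and 13.3% fell, so calls in both directions alone do not set a metabolic list apart. The shares that rose and fell were 21.1% and 28.9% for glycolysis and hypoxia-response genes and 28% and 24% for NRF2 genes. They were 0% and 24.4% for respiratory chain genes and 2.13% and 27.7% for ribosome biogenesis genes. For cholesterol and fatty acid synthesis genes they were 6.67% and 20%, and for the ATF4 list 17.3% and 28.8%. Of the glycolysis and hypoxia-response genes, 8 of 38 tested members rose and 11 fell. The glucose transporters SLC2A3 and SLC2A1 rose, by 2.63 ± 0.09 and 1.60 ± 0.06, and the glycolytic enzymes PFKM and GPI fell, at -0.54 ± 0.05 and -0.50 ± 0.04. With only the unmarked probe sets, 3 of this list rose and 5 fell. TKT, the main transketolase, fell, at -0.49 ± 0.04, but had -0.18 on its unmarked probe sets, where it was not called. It belongs to the NRF2 antioxidant and carbonyl-reducing genes, of which 14 of 50 rose and 12 fell; the carbonyl reductase CBR1 rose by 2.51 ± 0.09 and the glutathione transferase GSTM3 by 2.12 ± 0.18, which was 0.03 on its unmarked probe set. Of the mitochondrial respiratory chain genes, 0 of 45 tested members rose and 11 fell, and of the nucleolar ribosome biogenesis genes, 1 of 47 tested members rose and 13 fell, with 3 higher without DMSO replicate 2. Of the cholesterol and fatty acid synthesis genes, 2 of 30 tested members rose and 6 fell, with SQLE, squalene epoxidase, at 0.45 ± 0.06 and ELOVL6, a fatty acid elongase, at -0.71 ± 0.09; 5 rose without the first DAC array. Of the ATF4, unfolded protein response and tRNA charging genes, 9 of 52 tested members rose and 15 fell, with ATF5 at 0.91 ± 0.07 and ATF4 itself at -0.46 ± 0.06.

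Markers of other cell types were counted as a check. Against 14.3% and 13.3% of all genes tested, 22.2% of neuronal markers rose and 13.9% fell, and 20.7% of blood markers rose and 0% fell. The shares were 10.5% and 0% for fibroblast and endothelial markers and 16% and 8% for keratinocyte markers. Of the neuronal markers, 8 of 36 tested members rose and 5 fell, with 5 higher without DMSO replicate 3 or the first DAC array, and the mean level of the list lay between 7.13 and 7.21 on the low-dose arrays, against 6.97 to 7.10 on the DMSO arrays. Of the blood and immune cell markers, 6 of 29 tested members rose and 0 fell, led by SRGN, a proteoglycan of secretory granules, at 3.90 ± 0.19 over DMSO values that averaged under 5. The mean of that list lay between 6.89 and 7.00 at the low dose and between 6.66 and 6.78 in DMSO. Of the fibroblast and endothelial markers, 2 of 19 tested members rose and 0 fell, and of the keratinocyte markers, 4 of 25 tested members rose and 2 fell. Of the keratinocyte markers 1 rose without the first DAC array and 2 without DMSO replicate 4 or the first G668684 array, and 1 fell without DMSO replicate 3, the first DAC array or the first G668684 array. Without DMSO replicate 1, 2 blood markers fell. Of the colorectal epithelial line markers, 5 of 18 tested members (27.8%) rose and 2 (11.1%) fell. KRT8 and KRT18 rose, by 0.46 ± 0.07 and 0.45 ± 0.04, and CLDN4 and CLDN7 fell, at -0.64 ± 0.07 and -0.20 ± 0.06. In this list 1 fell without DMSO replicate 3 or the first G668684 array. Whether these lists have a part in the results was not tested. In bulk RNA, a change in the share of cells and a change in RNA per cell cannot be told apart.

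Taken alone, DAC at 120 nM raised 2252 genes (12.5%) and lowered 1787 (9.9%), and G668684 at 150 nM raised 1926 (10.7%) and lowered 1876 (10.4%). The doses differ and both sides share the DMSO arrays, so the values are set side by side only. TKTL1 differed from DMSO by 7.70 with DAC and 7.61 with G668684, VIM by 3.84 and 3.74, HS3ST1 by -2.16 and -2.07, and POLA1 by -0.73 and -0.80. Of the 37 cancer-testis genes tested, 28 rose with DAC and 29 with G668684. Of the 66 S phase genes, 36 fell with DAC and 41 with G668684. Without its first array G668684 lowered 857 genes, and without its first array DAC lowered 1062.

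Set against the high dose of the same compounds, 1802 genes were higher at the low dose (9.98%) and 2542 lower (14.1%). The 2 comparisons share the low-dose arrays, and levels are therefore given for DMSO, low and high dose. Some genes had their highest level at the low dose. TKTL1 was at 5.24 ± 0.37 in DMSO, 12.89 ± 0.06 at the low dose and 12.25 ± 0.05 at the high dose (SD, n = 4 each). CTCFL, the testis paralog of the insulator protein CTCF, was at 4.92 ± 0.30 in DMSO, 7.02 ± 0.35 at the low dose and 5.77 ± 0.07 at the high dose, and the low dose exceeded the high dose by 1.26 ± 0.15 (adjusted p = 2.7e-06, limma). VCX2, of a testis gene family on the X chromosome, was at 7.05 ± 0.19 in DMSO, 9.29 ± 0.27 at the low dose and 8.18 ± 0.17 at the high dose. The mitotic kinesin genes KIF15 and CENPE lay between the other groups: KIF15 was at 7.90 ± 0.21 in DMSO, 6.99 ± 0.16 at the low dose and 5.88 ± 0.28 at the high dose, and CENPE at 7.76 ± 0.30 in DMSO, 7.25 ± 0.39 at the low dose and 6.08 ± 0.26 at the high dose. CENPE exceeded the high dose by 1.17 ± 0.15, but its call against DMSO was lost with DMSO replicates 1 and 2 only, at -0.28, in the first array set, at -0.24, without DMSO replicate 4, at -0.40, and without the second G668684 array, at -0.47. KLRC3, a natural killer cell receptor gene, was higher than at the high dose by 1.13 ± 0.13, but it was called lower than in DMSO. That fall against DMSO was not called with DMSO replicates 1 and 2 only, at -0.35.

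Other genes were well below their high-dose level. The neuropeptide precursor TAC1 was at 3.67 ± 0.17 in DMSO, 4.74 ± 0.32 at the low dose and 7.99 ± 0.06 at the high dose, so that its low-dose level was still under 5 and its difference from the high dose was -3.25 ± 0.13 (adjusted p = 2.6e-12, limma). The potassium channel subunit KCNV2 was at 4.31 ± 0.19 in DMSO, 6.17 ± 0.49 at the low dose and 8.48 ± 0.17 at the high dose, COXFA4L3 at 5.21 ± 0.25 in DMSO, 5.67 ± 0.21 at the low dose and 7.75 ± 0.11 at the high dose and ZNF542P at 4.72 ± 0.16 in DMSO, 6.23 ± 0.22 at the low dose and 8.05 ± 0.27 at the high dose. BTC had its lowest level at the low dose: it was at 6.51 ± 0.46 in DMSO, 4.93 ± 0.44 at the low dose and 7.43 ± 0.14 at the high dose, and the difference from the high dose was -2.50 ± 0.20. As lists, 37 of the 60 p53 target genes were lower at the low than at the high dose and 2 higher, and 59 of the 78 G2/M genes were higher and 0 lower. Of the 37 cancer-testis genes tested 12 were higher and 5 lower at the low dose, and of the 55 germ cell genes 3 and 16. Over all genes tested 9.98% were higher and 14.1% lower.

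**Figure D5:**
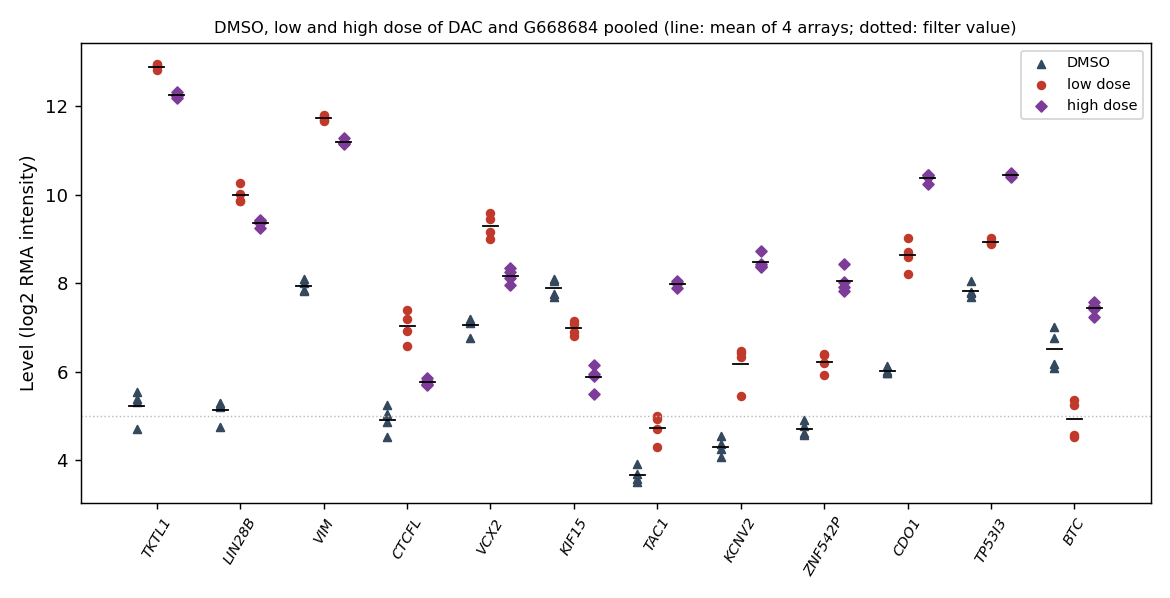
Level of 12 genes (log2 RMA intensity) on the 4 arrays each of DMSO, low dose and high dose of DAC and G668684 pooled, in that order for each gene, with lines at the means. TKTL1, LIN28B, VIM, CTCFL and VCX2 are highest at the low dose, TAC1, KCNV2, ZNF542P, CDO1 and TP53I3 at the high dose, and BTC is lowest at the low dose.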

How the data were processed

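RNA of HCT116 cells was measured on HG-U133 Plus 2.0 arrays, and the arrays were grouped by their titles. Per the submitters' processing notes, RMA was run in Affymetrix Expression Console 1.1, and the authors deposited its output as linear intensity values of 54675 probe sets, whose log2 was taken here. Detection calls were not used, so what lies above background is unknown. Probe sets carry no coordinates, with their genome build not given in the sources used here. Probe sets with 1 gene symbol (41091; 1801 had several and 11721 none, and 62 were controls) were kept at a log2 value of at least 5 on at least 2 arrays, which left 35146, and the probe set with the highest mean stood for each of 18055 genes.

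The model had a mean for each group and took in the 24 arrays of the series (limma 3.58.1, R 4.3.3, lmFit, eBayes with an intensity trend, 13 residual and 6.14 prior degrees of freedom). The low-dose side is the mean of the DAC and G668684 means, and genes were called at a 2-sided Benjamini-Hochberg adjusted p under 0.05 over all genes. Errors of differences are SEs and errors of levels are SDs. The model was also run on simulated data with independent noise on each array. Those data held no array sets, so that run cannot give the error rate where they are present.

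The members and the 36 lists (1783 entries, 1516 tested) were chosen with earlier results of these data known. Genes named come from a pool of 253: the 15 highest and 10 lowest called genes whose groups do not overlap, 10 and 10 among genes with both means at 7 or above, up to 4 called members of each list in each direction, the DNMT, TET, UHRF1 and DCK genes, and the 5 highest and 5 lowest against the high dose. Replicate numbers were not taken as pairs with DMSO: deviations from group means correlated at 0.62 and 0.49 with those of DMSO replicate 1 in the first arrays of DAC and G668684, and at -0.59 and -0.36 with those of DMSO replicate 2 in the second. In a group of 2 arrays, the second deviation is the first with its sign turned. The values of the second arrays thus add only DMSO replicate 2. Between treated groups, same-numbered arrays deviated together, at 0.61 for DAC and G668684 at the low dose, 0.42 at the high dose and 0.25 to 0.30 between doses, but there are only 2 numbers and no label says what they share. Alternatives changed the filter, probe sets, log offset, normalization, moderation, arrays in the fit, control arrays, weights, an RNA quality covariate, a replicate block and single arrays. Figures were drawn with matplotlib 3.10.9 in Python 3.11.15, from tables made with pandas 2.3.3.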

Additional observations from a re-analysis of the deposited data

Results flagged for a closer look

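In 8 of 270 groups of 4 arrays 1 array stood apart from the other 3 by Dixon's criterion. For independent normal values chance meets it in about 1 group in 20. Each group here holds 2 arrays of each array set, so the number to expect is unknown and no conclusion is drawn from the 8. Among low-dose arrays, the level was 11.59 log2 for GCNA and 10.79 for TIGAR on the second DAC array, 12.65 for KRT8 on the first DAC array, 9.66 for CDKN1C on the second G668684 array and 5.45 for KCNV2 on the first. Among DMSO arrays, it was 3.43 for FMR1NB and 11.16 for S100A4 on replicate 1 and 3.39 for GJA1 on replicate 2.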

How the results depend on the processing

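There were 27 alternatives, of which 3 were chosen after seeing the data. Of the 126 named genes called at the low dose against DMSO, 124 kept their direction under every alternative in which they were tested. In the same alternatives 115 also kept their call. Genes with only marked probe sets, such as VIM and MAGEA1, could not be tested with only the unmarked probe sets. PCDH7 reversed to 0.26 with the mean of its probe sets, and UCHL1 to -0.07 with only the unmarked probe sets. The count of 4991 called genes was 3746 with array weights. It was 3004 with the 8 arrays alone in 3 groups, where only these arrays give the spread. In those 3 groups 1654 rose and 1350 fell, and 1529 fell with the 8 arrays in 2 groups. The cause of these lower counts was not tested. Leaving out single arrays gave 4243 to 5242 called genes, 219 to 238 at least 2-fold higher and 21 to 71 at least 2-fold lower. The 30 at least 2-fold lower genes were 15 with the mean of probe sets, 16 with DMSO replicates 1 and 2 only, 125 with DMSO replicates 3 and 4 only and 51 in the second array set alone; the cause was not tested. With the replicate number as a block, 5284 genes were called and 16 were at least 2-fold lower, and 5505 genes differed between the low and the high dose in place of 4344. Only DMSO has replicates 3 and 4, so with this block differences from DMSO rest on DMSO replicates 1 and 2. The 16 of the block and the 16 with those replicates only are thus not separate results. With the array sets as a block, added after seeing the data, 5379 were called. Leaving out single arrays gave 1062 to 2026 genes lowered by DAC, and 2239 to 4023 called and 857 to 2139 lowered with G668684. Low intensity limits what 4 arrays a side can show for genes near a level of 5.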
